A study of Mus musculus with 8 samples.

Results

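Bmp signalling was followed through 10 of its genes in sorted Paneth cells: the ligands Bmp2, Bmp4 and Bmp7, the receptors Bmpr1a and Bmpr2, the signal carriers Smad1 and Smad4, and the inhibitors Smad6, Smad7 and Bambi. The genes were picked by name for their place in the pathway, and all 10 were found by Ensembl identifier among the 53801 genes counted. Paneth cells, sorted as viable EpCAM+ Cd24+ cells of the small intestine, came from 4 control mice of genotype β-cat GOF; Mll1+/- and from 4 knockout mice of genotype β-cat GOF; Mll1-/-. Every mouse carried a conditional β-catenin allele, which Cre turns into the activating deletion (GOF), and an Lgr5-EGFP-IRES-CreERT2 allele, and the 2 genotypes differed in whether 1 or both floxed copies of Mll1, a histone H3K4 methyltransferase encoded by Kmt2a, could be recombined. Mutagenesis was induced with 1 mg tamoxifen on 3 consecutive days, and the cells were collected 10 d after induction from young mice of both sexes. The Lgr5 allele drives Cre in stem cells, from which Paneth cells arise, in a mosaic of recombined and non-recombined crypts, and the EpCAM+ Cd24+ gate does not select recombined cells. The study stained crypts of both genotypes for Mll1 at the time of sorting and describes those of the knockouts, Paneth cells included, as deficient. Recombined cells of the controls have themselves lost 1 copy of Mll1. The methods paragraph on the sorting names Mll1 flox littermates without β-cat GOF, whereas the labels give β-cat GOF for both groups.

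Bmp ligands are secreted dimers that bring together type I and type II serine/threonine kinase receptors. The type I receptor then phosphorylates Smad1, Smad5 or Smad9, which enter the nucleus with Smad4 and act on target genes such as the Id genes. Smad6, Smad7 and the kinase-less pseudoreceptor Bambi damp the signal, and all of them are known to be induced by it. In the small intestine Bmp signalling is strong in the villus and held low at the crypt base, where Paneth cells sit between stem cells and where antagonists such as noggin and gremlin are made by the underlying stroma.

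Library totals lay between 13037832 and 14380240 counts, and levels are given as normalized CPM, counts divided by library sizes that TMM factors had scaled, so that 1 count was worth between 0.0574 and 0.117. Knockout 3 stood apart: 19662 genes were detected there and 22623 to 26074 in each of the others, with a TMM factor of 0.632 where the others had 0.822 to 1.34. The targeted gene Kmt2a had 719, 469, 268 and 284 counts in controls and 523, 447, 328 and 468 in knockouts (log2 fold change −0.06, SE 0.24, adjusted p = 0.995 in edgeR's quasi-likelihood test), a count over the whole gene that does not check the deleted part. All 16 Paneth markers passed the filter on low counts, with summed levels of 283210.6 to 566180.4 normalized CPM in controls and 267601.5 to 795010.2 in knockouts, and 0 of them had an unadjusted p under 0.05. Of 17 stromal markers 0 passed that filter, and their summed levels were 2.33 to 3.47 normalized CPM in controls and 1.53 to 2.79 in knockouts, with the collagens Col1a1, Col1a2, Col3a1 and Col6a1 at 10 or fewer counts in every library.

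None of the Bmp pathway members was called as different between the genotypes. At an adjusted p no higher than 0.05 with a log2 fold change no smaller than 0.5 in either direction, 0 of the 9 members that passed the filter were called, beside 0.186% of all 13439 genes tested (0.156% higher and 0.0298% lower), and 0 of the 9 had an unadjusted p under 0.05, beside 6.88% of all genes. DESeq2 and limma-voom called 0 members as well. Bmp4 was too low to be tested with all libraries. At this number of mice the power was limited: in data simulated from these libraries, edgeR recovered 13.7% of genes changed 2-fold and 73.1% of genes changed 4-fold. Of the 9 tested members 6 had a higher and 3 a lower estimate in the knockouts, and 50.9% of all genes had a higher one. The median log2 fold change of the 9 was 0.07, beside 0.01 over all genes tested. Smad1 was the 1 member of 9 whose genotypes did not overlap, and over all genes 4.52% did not.

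**Figure D1:**
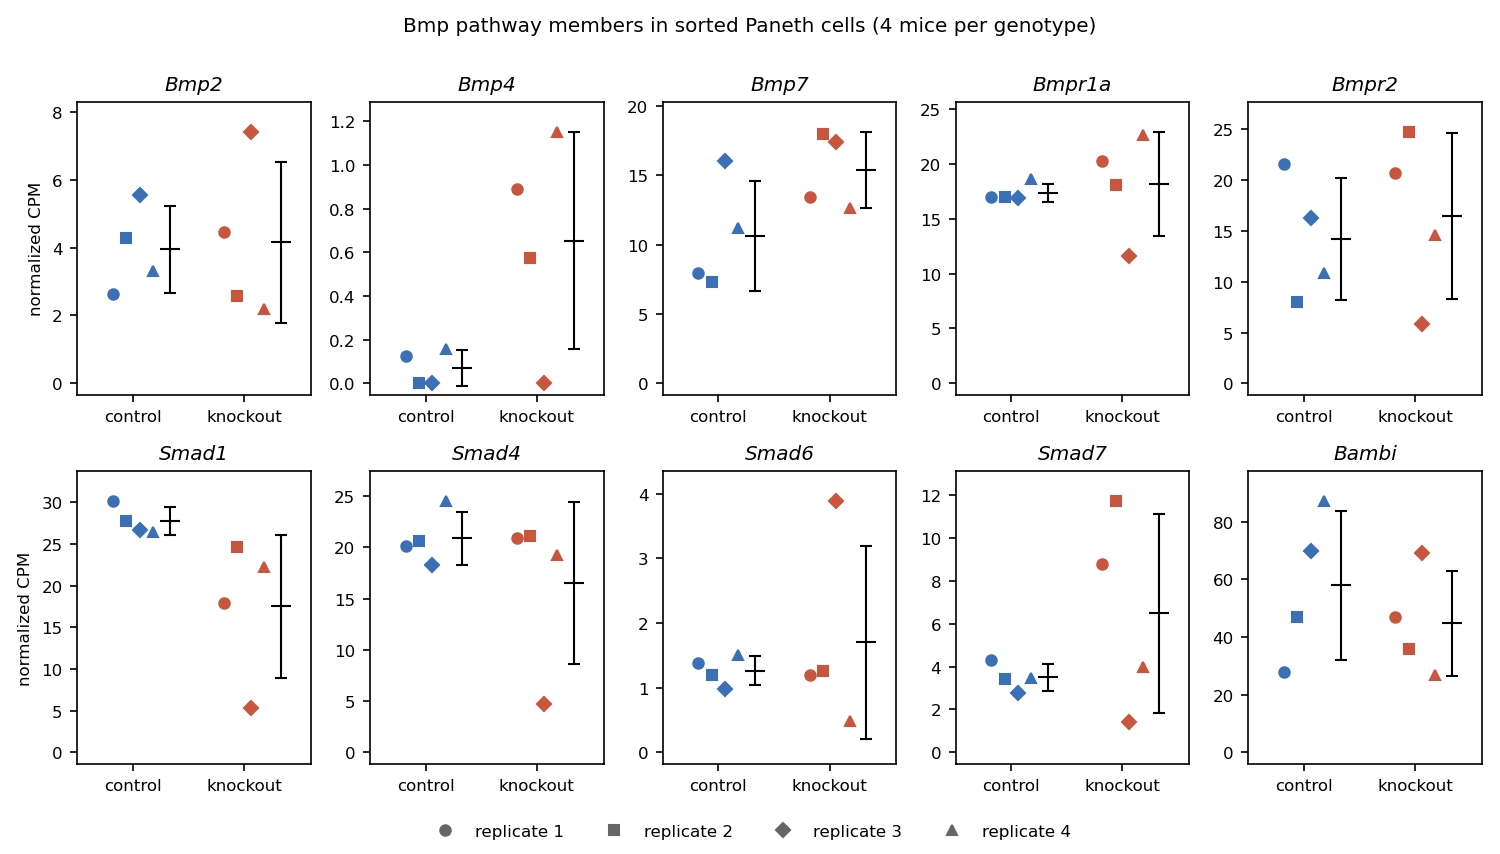
Normalized CPM of each of the 10 members (vertical axis, linear and starting near 0, its range set per gene) in 4 control and 4 knockout libraries, with the mean and SD of each group beside the points. Knockout 3, the red diamond, lies below every other library for Bmpr1a, Bmpr2, Smad1, Smad4 and Smad7 and above every other library for Bmp2 and Smad6, and the genotypes are apart from each other for Smad1.

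Among the ligands, Bmp7 was the most abundant per length and Bmp4 was close to the limit of detection. Bmp2 (ENSMUSG00000027358, mm10 chromosome 2 from 133552159 to 133562885), a ligand known in the gut from differentiated epithelium, was at 2.63, 4.28, 5.56 and 3.31 normalized CPM in controls 1 to 4 and at 4.46, 2.58, 7.4 and 2.18 in knockouts 1 to 4. The groups overlapped, with knockout 3 highest and knockout 4 lowest, and the means were 3.95 ± 1.27 and 4.16 ± 2.38 (SD, n = 4). The log2 fold change of Bmp2 was 0.06 (SE 0.42, 95% interval −0.87 to 0.99, adjusted p = 0.996), and with each library left out in turn it lay between −0.36, without knockout 3, and 0.27.

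Bmp7 (ENSMUSG00000008999, chromosome 2 from 172868012 to 172940321), a ligand made by many epithelia, was at 7.96, 7.3, 16 and 11.2 normalized CPM in the controls and at 13.4, 18, 17.4 and 12.6 in the knockouts. Control 3 was within the range of the knockouts, whereas the other 3 controls lay below all knockouts. The means were 10.6 ± 3.96 and 15.3 ± 2.74 (SD, n = 4), a log2 fold change of 0.53 (SE 0.27, 95% interval −0.06 to 1.12) that missed the threshold, with p = 0.0735 before and 0.786 after adjustment in edgeR and p = 0.114 in an exact two-sided permutation test. The estimate for Bmp7 was positive under all 17 settings run, between 0.37 and 0.79.

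Bmp4 (ENSMUSG00000021835, chromosome 14 from 46383520 to 46390669), the ligand best known from the mesenchyme under the crypts, had 2, 0, 0 and 2 counts in controls 1 to 4, but 15, 10, 0 and 19 in knockouts 1 to 4. Knockouts 1, 2 and 4 thus lay above all controls, and knockout 3 had none. The pooled counts, 44 against 4, gave a ratio of 9.72 (95% interval 3.54 to 37.3, exact) after scaling for library size. That interval covers the counting of reads alone, not PCR copies or the spread between mice. The exact permutation test over mice gave p = 0.143. In a fit without the filter on low counts, over 37039 genes of which 0.783% were called and 8.33% had an unadjusted p under 0.05, the log2 fold change was 3.05 (SE 1.11, adjusted p = 0.28). With the filter but without knockout 3, over 14086 genes, Bmp4 was tested and its log2 fold change was 3.39 (SE 0.83, 95% interval 1.58 to 5.2, adjusted p = 0.0951). It passed the filter there through the 3 remaining knockouts alone, and the library left out is the knockout with 0 counts, so this estimate is a description. Bmp4 was called in neither fit. Its levels in the knockouts were 0.891, 0.574, 0 and 1.15 normalized CPM. Knockout 4, with the most Bmp4 counts, had summed stromal markers of 2.79 normalized CPM, the highest of the knockouts and below 3 of the 4 controls. By counts Col1a1, Col1a2 and Col6a1, with 7, 10 and 4, were highest in that library, and Lum, with 7, was level with control 3. Of the 17 markers 6, Col3a1, Pdgfra, Pdgfrb, Myh11, Thy1 and Twist1, had 0 counts there. Each of these 6 had 7 or fewer counts in every library, and Myh11, Thy1 and Twist1 had 0 in every knockout. The part of stromal cells in the Bmp4 counts was not tested. A count of 0, as in knockout 3, allows up to 3 counts, which there are 0.352 normalized CPM. With gene Gm15217 on the opposite strand Bmp4 shares 4.0% of its exon bases, and no strand setting is given for the counting. Per the methods only a small number of cells was sorted into a tube before amplification, so low counts can also depend on which cells were drawn, which was not tested. In such pooled libraries a few cells with much Bmp4 RNA and many cells with little cannot be told apart.

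Bmp4 and Smad6 were the least abundant members per length, and the 250 bases before their RefSeq start sites (GRCm38.p6, both genes on the minus strand, written 5′ to 3′ on the gene's strand) are shown as the sequence next to the reads counted, with capitals for GGAGCC or its reverse complement GGCTCC, a variant core of the GC-rich element that Smad1 and Smad5 bind. The windows are chr14:46390670-46390919 for Bmp4 and chr9:64022060-64022309 for Smad6.
Bmp4: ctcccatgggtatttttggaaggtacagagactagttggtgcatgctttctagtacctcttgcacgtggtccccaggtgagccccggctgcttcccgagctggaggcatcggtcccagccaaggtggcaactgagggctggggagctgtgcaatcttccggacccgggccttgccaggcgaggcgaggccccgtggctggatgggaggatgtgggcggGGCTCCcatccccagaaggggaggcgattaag
Smad6: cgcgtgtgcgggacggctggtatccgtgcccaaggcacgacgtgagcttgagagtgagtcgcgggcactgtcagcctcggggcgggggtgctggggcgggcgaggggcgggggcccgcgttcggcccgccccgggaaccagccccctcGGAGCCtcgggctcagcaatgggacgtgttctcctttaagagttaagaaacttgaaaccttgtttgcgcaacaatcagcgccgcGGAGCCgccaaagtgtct
Bmp4 had 1 match, which began 32 bases before the start, and Smad6 had 2, at 102 and 18 bases. On either strand GGAGCC was found in 26.0% of the 32851 RefSeq windows of this length, so a match is common. The core GGCGCC (9.59% of windows), the Smad-binding core CAGAC (42.2%) and the Tcf/Lef motifs CTTTGAA (4.46%) and CTTTGAT (3.21%) were searched on both strands and had no match in either window. The GC content was 63.2% for Bmp4 and 66.8% for Smad6, beside a median of 52.4% over all windows. No match overlapped another, and the counts do not show whether any protein is bound there.

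Both receptors were detected in every library, at levels that overlapped between the genotypes. Bmpr1a (ENSMUSG00000021796, chromosome 14 from 34410734 to 34503341), the main type I receptor of the gut epithelium, was at 17, 17, 16.9 and 18.6 normalized CPM in controls 1 to 4 and at 20.3, 18.1, 11.6 and 22.6 in knockouts 1 to 4. The controls were nearly level, and the knockouts lay on both sides of them, with knockout 3 lowest of all libraries. Its log2 fold change came to 0.07 (SE 0.21, 95% interval −0.4 to 0.53, adjusted p = 0.99), the narrowest interval of the 9 tested members. An antisense gene, Gm17110, shares 4.6% of the exon bases of Bmpr1a.

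Bmpr2 (ENSMUSG00000067336, chromosome 1 from 59763400 to 59879014), the type II receptor that phosphorylates the type I partner, was at 21.6, 8.01, 16.3 and 10.9 normalized CPM in the controls and at 20.7, 24.7, 5.87 and 14.6 in the knockouts. It varied widely within both groups, and the lowest and the highest library were both knockouts. Between the genotypes the log2 fold change was 0.22 (SE 0.41, 95% interval −0.67 to 1.11, adjusted p = 0.981), and with each library left out in turn it lay between −0.04, without knockout 2, and 0.5, without control 1.

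Smad1 was lower in every knockout than in every control, by a difference that did not pass the adjusted test. Smad1 (ENSMUSG00000031681, chromosome 8 from 79338395 to 79399518), which the activated Bmp type I receptor phosphorylates, was at 30.1, 27.7, 26.7 and 26.4 normalized CPM in controls 1 to 4 and at 17.9, 24.6, 5.29 and 22.2 in knockouts 1 to 4. The highest knockout, knockout 2, reached 24.6 and the lowest control, control 4, 26.4. The means were 27.7 ± 1.65 and 17.5 ± 8.59 (SD, n = 4), a log2 fold change of −0.65 (SE 0.35, 95% interval −1.42 to 0.11, adjusted p = 0.806 in edgeR). In the exact two-sided permutation test p was 0.0286, the smallest that 4 mice against 4 can give, and 0.632 after adjustment over all genes tested. Over all genes, 1.93% had every knockout below every control. Without knockout 3 the difference shrank to −0.37 (SE 0.16, 95% interval −0.72 to −0.01, adjusted p = 0.416), and every remaining knockout still lay below the controls, as did 4.61% of genes in that comparison.

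Smad4 (ENSMUSG00000024515, chromosome 18 from 73639009 to 73703780), the partner shared by the Bmp and Tgf-beta branches, was at 20.1, 20.6, 18.3 and 24.5 normalized CPM in the controls and at 20.9, 21.1, 4.7 and 19.3 in the knockouts. Knockout 3 was far below the rest, and the remaining 3 knockouts were within the range of the controls. With all libraries the log2 fold change was −0.33 (SE 0.36, 95% interval −1.12 to 0.46, adjusted p = 0.951), and without knockout 3 it was −0.03 (SE 0.16, 95% interval −0.38 to 0.32).

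Of the 3 inhibitors, Smad7 had the highest estimate in the knockouts, which rested on knockouts 1 and 2. Smad7 (ENSMUSG00000025880, chromosome 18 from 75367529 to 75395935), an inhibitory Smad of both the Bmp and the Tgf-beta branch, was at 4.32, 3.41, 2.78 and 3.47 normalized CPM in controls 1 to 4 and at 8.79, 11.7, 1.41 and 4 in knockouts 1 to 4. Knockouts 1 and 2 were more than 4 normalized CPM above every control, knockout 4 lay inside the control range and knockout 3 below it. The means were 3.5 ± 0.634 and 6.48 ± 4.64 (SD, n = 4), a log2 fold change of 0.9 (SE 0.51, 95% interval −0.21 to 2.01) with an edgeR p of 0.102, or 0.829 adjusted, and p = 0.4 in the exact permutation test. Without knockout 3 it was 1.21 (SE 0.34, 95% interval 0.47 to 1.95), which did not pass after adjustment over all genes (adjusted p = 0.151). Without knockout 2 it was 0.45 (adjusted p = 0.94), and with a Y-linked covariate 0.55 (adjusted p = 0.992).

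Smad6 (ENSMUSG00000036867, chromosome 9 from 63953076 to 64022059), the inhibitory Smad that acts mainly on the Bmp branch, received between 8 and 33 counts in a library. It was at 1.38, 1.19, 0.987 and 1.5 normalized CPM in the controls and at 1.19, 1.26, 3.88 and 0.485 in the knockouts. Knockout 3 was the highest library and knockout 4 the lowest. An estimated log2 fold change of 0.38 (SE 0.59, 95% interval −0.91 to 1.67, adjusted p = 0.972), with the widest interval of the tested members, turned to −0.37 (SE 0.48, adjusted p = 0.836) without knockout 3.

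Bambi (ENSMUSG00000024232, chromosome 18 from 3507957 to 3516404), the pseudoreceptor that binds receptors without a kinase of its own and is also known as a Wnt target, was at 28, 46.8, 69.7 and 87 normalized CPM in the controls and at 46.9, 35.9, 69.2 and 26.7 in the knockouts. The controls alone spanned a wider range than the knockouts, and the groups overlapped nearly throughout. The means were 57.9 ± 25.8 and 44.7 ± 18.3 (SD, n = 4), a log2 fold change of −0.38 (SE 0.35, 95% interval −1.15 to 0.4, adjusted p = 0.931), and with each library left out in turn it lay between −0.67, without knockout 3, and −0.11, without control 4. Over the 8 libraries the genes whose log2 normalized CPM followed that of Bambi most closely were Rab3d, with a Pearson r of 0.976, Sppl2a with 0.954 and Sec31a with 0.949, figures that describe these libraries and share their depth and composition.

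**Figure D2:**
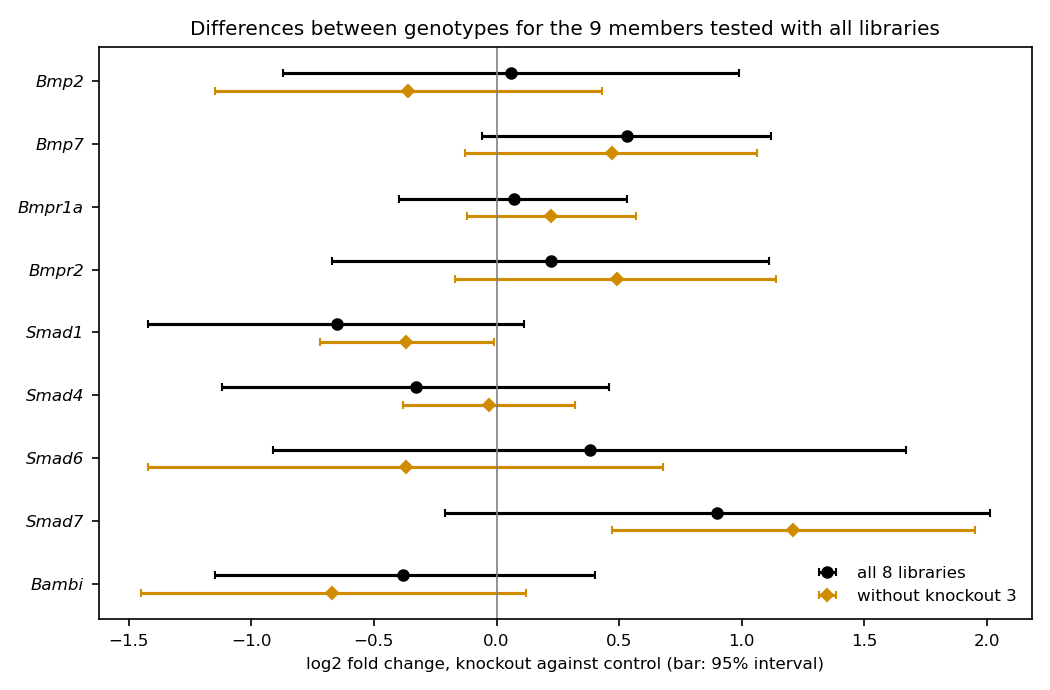
Log2 fold change of knockout against control with its 95% interval for the 9 tested members, with all 8 libraries (black circles) and without knockout 3 (orange diamonds). With all libraries every interval crosses 0, and without knockout 3 the intervals of Smad1 (−0.72 to −0.01) and Smad7 (0.47 to 1.95) do not, before any adjustment for the number of genes, in a fit where 11.3% of all 14086 genes had an unadjusted p under 0.05.

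To compare levels between the members, the normalized CPM were divided by the exon length in kb. Bambi was the most abundant member, at 10.2 ± 4.34 normalized CPM per kb (SD over 8 libraries), which placed it at percentile 89 of the genes tested. Smad4 followed at 5.04 ± 1.6, Smad1 at 3.61 ± 1.27, Bmp7 at 3.23 ± 1.01 and Bmpr1a at 2.8 ± 0.497. Bambi was above Smad4 in 8 of 8 libraries and Smad4 above Smad1 in 8 of 8. Smad1 was above Bmp7 in 5 and Bmp7 above Bmpr1a in 4, so these neighbours did not differ beyond their spread. Below Bmpr1a, which was above Bmp2 in 7 of 8 libraries, came Bmp2 at 1.14 ± 0.498, Smad7 at 1.1 ± 0.764 and Bmpr2 at 0.853 ± 0.376 normalized CPM per kb. Bmp2 exceeded Smad7 in 4 libraries and Smad7 exceeded Bmpr2 in 5, again within their spread. Smad6 at 0.463 ± 0.316 was below Bmpr2 in 7 of 8 libraries, and Bmp4 at 0.161 ± 0.202 was last, at percentile 2.57.

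Bmp7, Bmpr1a and Smad1 made up the larger part of their families in these cells. Of the summed level per kb of 8 Bmp ligand genes (Bmp2 to Bmp7, Bmp8a and Bmp8b), Bmp7 made up 55.1% ± 4.64 in controls and 62.7% ± 8.95 in knockouts (SD, n = 4), and it was the largest in 8 of 8 libraries. Bmp2 took 24% ± 6.9 and 18.2% ± 7.18, and Bmp4 took 0.73% ± 0.843 and 5.37% ± 4.28. Among the type I receptors Bmpr1a, Bmpr1b, Acvr1 and Acvrl1, Bmpr1a held 69.9% ± 4.18 in controls and 74% ± 10.5 in knockouts and was the largest in 8 of 8 libraries, with Acvr1 next and Bmpr1b at 0.894% or less. The type II receptors were shared more evenly: Bmpr2 was the largest in 4 libraries, Acvr2a in 2 and Acvr2b in 2. Bmpr2 itself ranged from 10.6% in knockout 3 to 49.9% in knockout 1.

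Of the receptor-activated Bmp Smads, Smad1 made up 75.7% ± 4.18 in controls and 62.9% ± 18.8 in knockouts, with 63.5%, 71.3%, 36.7% and 80.4% in knockouts 1 to 4. In knockout 3 Smad5, at 63.3%, exceeded Smad1, which was the largest in the other 7 libraries, and Smad9 stayed at 4.13% or less. Smad5 itself had a log2 fold change of 0.07 (SE 0.25, adjusted p = 0.991), and its level of 10.8 normalized CPM in knockout 3 was within the 6.43 to 11.4 of the other libraries.

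**Figure D3:**
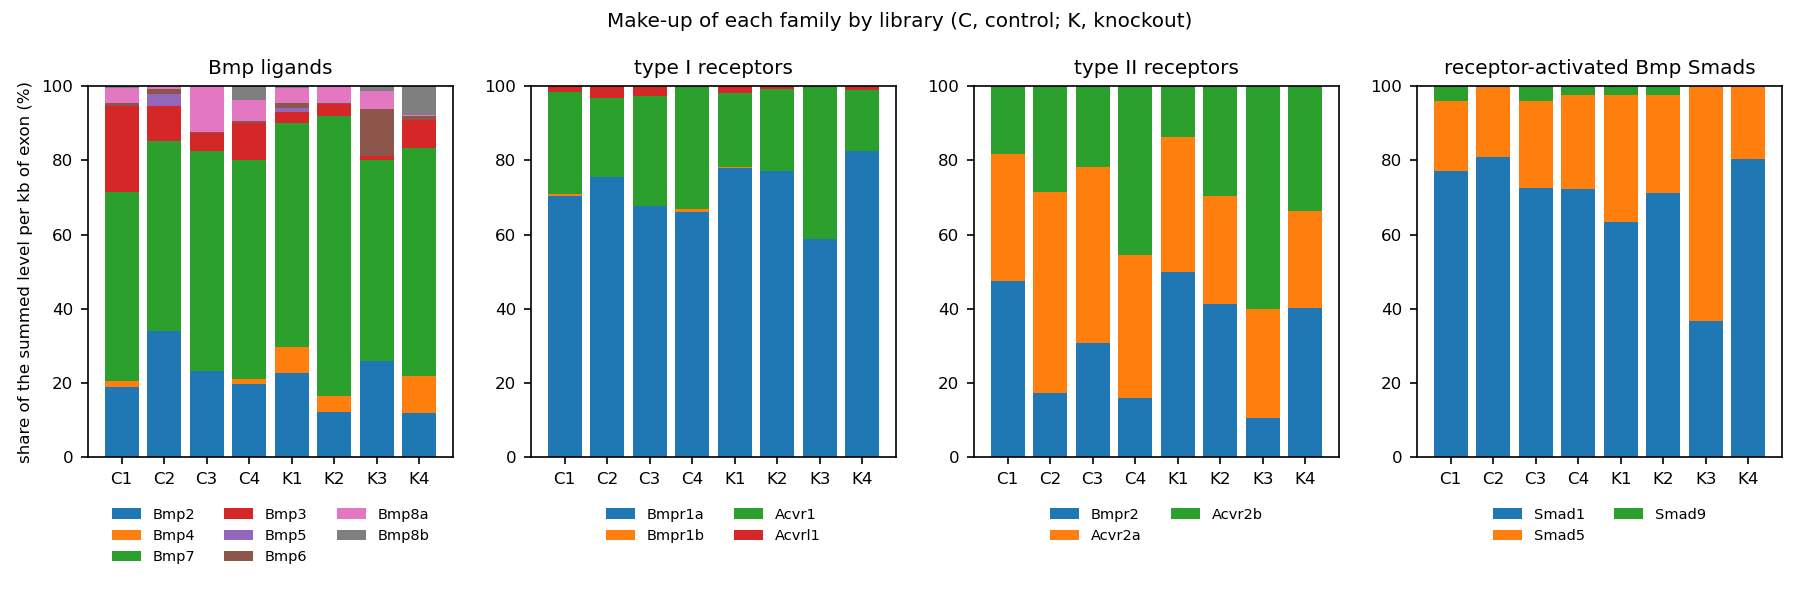
Share of each gene, in percent of the summed normalized CPM per kb of exon, in 4 families (8 Bmp ligands, type I receptors, type II receptors, receptor-activated Bmp Smads) for controls C1 to C4 and knockouts K1 to K4. Bmp7 and Bmpr1a take the largest share of their families in all 8 bars, and in K3 Smad5 (63.3%) exceeds Smad1 (36.7%).

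Knockout 3 set the spread of several members. It was the lowest of the 8 libraries for 5 of the 9 tested members, Bmpr1a, Bmpr2, Smad1, Smad4 and Smad7, and the highest for 2, Bmp2 and Smad6. Over all genes tested it was lowest for 31% and highest for 26.8%. For Smad1 and Smad4 its level was under 0.5 times that of the lowest other library, as it was for 11.7% of all genes, and for 3.53% of 4329 genes whose mean reached 10 normalized CPM, among which 2 of 6 members were so. Against the mean of the other 3 knockouts, knockout 3 stood at 0.173 for Smad7, 0.23 for Smad4, 0.245 for Smad1 and 0.294 for Bmpr2, but at 1.19 for Bmp7, 1.89 for Bambi, 2.41 for Bmp2 and 3.96 for Smad6. The library's summed Paneth markers, 795010.2 normalized CPM, were the highest of all, and its stem cell markers, 325.9, the lowest, against 722.2 to 1586.5 elsewhere. Most of that Paneth sum, 511000 normalized CPM, was the single gene Defa24. Its raw counts there, 4349970, were below the 4427283 and 4563936 of controls 3 and 4, and division by a TMM factor of 0.632 raised its normalized CPM. The part of the library's makeup in these members' values was not tested.

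**Figure D4:**
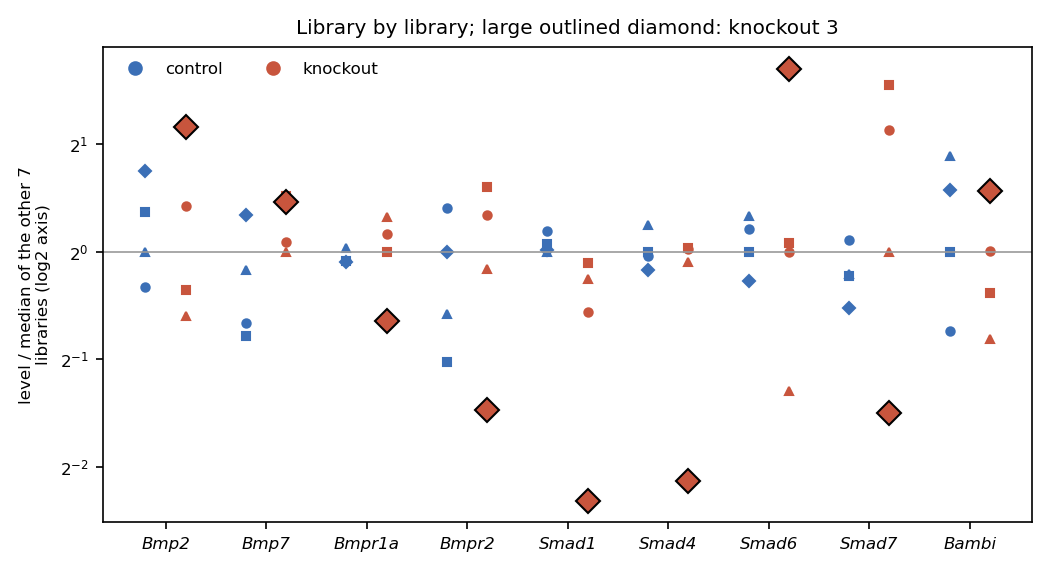
Level of each tested member in every library divided by the median of the other 7 libraries, on a log2 axis, with knockout 3 as a large outlined diamond. Knockout 3 is the lowest point for 5 of 9 members and the highest for 2.

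With knockout 3 included, Smad1 and Smad4 followed each other over the 8 libraries (Pearson r of log2 normalized CPM 0.95), and without it r was −0.01 over 7. Bmpr1a and Smad4 went from 0.85 to 0.05 in the same way. The pair Bmpr2 and Smad7 kept 0.82 with and 0.68 without that library, Bmp4 and Bmpr1a 0.76 and 0.88, and Bmpr1a and Smad6 −0.9 and −0.69. These are the 5 strongest of 45 pairs, given as a description, and all points share the same libraries.

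The libraries fall into 2 runs of label numbers, controls and knockouts 1 and 2 in the first and 3 and 4 in the second. Within both runs the difference of mean log2 normalized CPM had the same sign for 3 members, Bmp4 (2.13 and 1.05), Bmp7 (1.01 and 0.14) and Smad1 (−0.46 and −1.28). It had opposite signs for 7, among them Smad7 (1.37 and −0.36), Bmpr2 (0.77 and −0.52) and Bambi (0.18 and −0.86). No share over all genes stands beside these counts of members, so they do not set the members apart. For Bmp4 the second run holds 0 and 2 counts in controls and 0 and 19 in knockouts. The second run holds knockout 3, and with 2 mice a genotype the runs were not tested on their own. In an edgeR fit of all 8 libraries with the run as a block, the log2 fold change was 0.59 for Bmp7 (SE 0.26, adjusted p = 0.597), −0.68 for Smad1 (SE 0.34, adjusted p = 0.678) and 0.66 for Smad7 (SE 0.43, adjusted p = 0.799), and 0 members were called.

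The other genes of the pathway were read from lists of 96 genes, of which 95 were in the file and 49 passed the filter. With all libraries 0 of these 49 were called, beside the same 0.186% of all genes, and at an unadjusted p under 0.05 there were 6 with a higher and 2 with a lower level in the knockouts, beside 4.35% and 2.53% of all genes. Their median log2 fold change was 0.07, beside 0.01 for all genes.

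Among the genes known to respond to Bmp signals, Id3 and Hes1 were higher in 3 of the 4 knockouts. Of 13 such genes 9 were tested and 8 had a higher estimate in the knockouts, beside 50.9% of all genes, with a median log2 fold change of 0.5, beside 0.01. Single libraries carried some of these: Atoh8 went from 1.02 to −0.01 without knockout 3, which held 60 of its counts, and Id4 had 116 counts in knockout 2 and 38 or fewer elsewhere. Id3, a helix-loop-helix protein that blocks the binding of other such factors to DNA, was at 15.2, 19, 16.9 and 23 normalized CPM in controls 1 to 4 and at 47.9, 45.4, 10.5 and 29.9 in knockouts 1 to 4. The log2 fold change of Id3 was 0.86 (SE 0.37, adjusted p = 0.68, exact permutation p = 0.257), and without knockout 3 it was 1.15 (SE 0.2, adjusted p = 0.0187). Hes1, a transcriptional repressor best known as a Notch target, was at 46.1, 29, 31.1 and 35.7 in the controls and at 88.7, 85.7, 22.6 and 109 in the knockouts. The log2 fold change of Hes1 was 1.11 (SE 0.38, adjusted p = 0.502, exact permutation p = 0.143), and without knockout 3 it was 1.41 (SE 0.18, adjusted p = 0.00238). In both genes knockout 3 lay below every control and the other 3 knockouts above every control, as they did for 6.66% of genes tested without that library.

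Id1, a well-known target of Smad1, had a negative estimate. It was at 17.9, 25.4, 12.7 and 16.4 normalized CPM in the controls and at 20.4, 17.6, 3.05 and 16.1 in the knockouts. Its log2 fold change was −0.33 (SE 0.43, 95% interval −1.27 to 0.61), or −0.01 (SE 0.22, 95% interval −0.5 to 0.47) without knockout 3. Id2 was at 26 to 27.5 in the controls and at 54.5, 57.5, 8.34 and 27 in the knockouts (log2 fold change 0.46, SE 0.43, adjusted p = 0.932), and without knockout 3 the estimate was 0.78 (SE 0.22, adjusted p = 0.168). Msx2, a homeobox gene under the filter on low counts, had 5, 4, 1 and 18 counts in the controls and 0 in all 4 knockouts, at least 2.42-fold lower when each knockout is set to a floor of 3 counts. The bound rests on control 4, without which it is 1.09. Without knockout 3, 2 of the 9 tested response genes were called, Id3 and Hes1, beside 1.08% of the 14086 genes tested then. The library left out is the knockout that lay below every control in both genes, so these calls are a description. With any other single library left out neither was called.

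**Figure D5:**
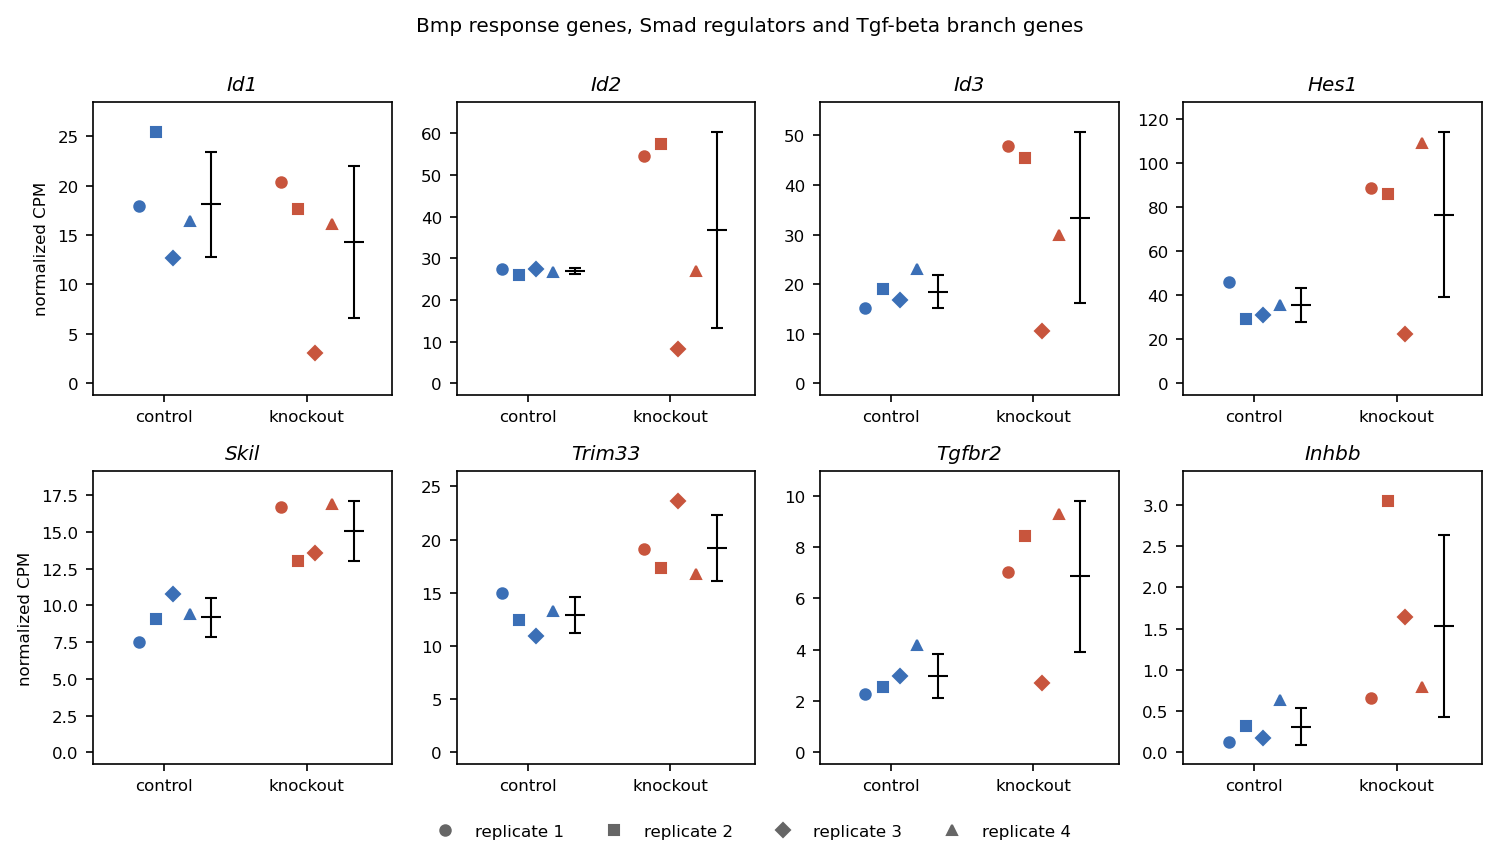
Normalized CPM of 4 Bmp response genes (Id1, Id2, Id3, Hes1), 2 regulators of Smads (Skil, Trim33) and 2 genes of the Tgf-beta and activin branch (Tgfbr2, Inhbb) in each library, with the mean and SD of each group; axes are linear and set per gene. For Id3 and Hes1 knockouts 1, 2 and 4 lie above all controls and knockout 3 below them, and for Skil and Trim33 every knockout lies above every control.

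The intracellular regulators of Smads were all tested, 19 of 19, with 11 estimates higher and 8 lower. Skil, a corepressor that binds Smad complexes, was at 7.52, 9.05, 10.8 and 9.39 normalized CPM in the controls and at 16.7, 13, 13.6 and 16.9 in the knockouts (log2 fold change 0.72, SE 0.2, adjusted p = 0.387). Trim33, a ubiquitin ligase that acts on Smad4, was at 10.9 to 15 in the controls and at 16.8 to 23.6 in the knockouts (log2 fold change 0.57, SE 0.19, adjusted p = 0.502). Both were above the controls in 4 of 4 knockouts, knockout 3 included, as were 2.59% of all genes, and neither passed the adjusted test.

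In the Tgf-beta and activin branch, where 5 of 13 genes were tested, Tgfbr2, the type II receptor for Tgf-beta, was at 2.26, 2.54, 2.96 and 4.18 normalized CPM in the controls and at 7.01, 8.44, 2.7 and 9.28 in the knockouts. The log2 fold change of Tgfbr2 was 1.21 (SE 0.39, adjusted p = 0.468), and without knockout 3 it was 1.46 (SE 0.28, adjusted p = 0.0257). The library left out is the lowest knockout for this gene, so the estimate without it is a description. Inhbb, a subunit of activin and inhibin, received 2, 4, 2 and 8 counts in the controls and 11, 53, 14 and 13 in the knockouts (log2 fold change 2.27, SE 0.7, adjusted p = 0.436). It passed the filter through the knockouts alone, since no control reached 10 counts, so its estimate and the separation of its groups are a description. The highest level per kb in this branch was that of the activin-type receptor Acvr1c, at 2.95, with a log2 fold change of −0.22 (SE 0.26).

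Of 18 other genes named as Bmps or Gdfs or related ligands, Bmp1 among them, which encodes a procollagen protease, 4 were tested. Bmp3, a ligand that opposes other Bmps, had the one unadjusted p under 0.05, with 107, 31, 27 and 44 counts in the controls and 21, 25, 5 and 48 in the knockouts (log2 fold change −1.26, SE 0.51, adjusted p = 0.662). Gdf15, a stress-induced relative of the Bmps, was the most abundant of these 4 per kb, at 0.659, with a log2 fold change of 0.07 (SE 0.46). Of 11 other receptors and co-receptors in the file 5 were tested. The type II receptor Acvr2a was at 4.89, 7.86, 7.9 and 8.37 normalized CPM in the controls and at 4.75, 5.51, 5.17 and 2.97 in the knockouts (log2 fold change −0.66, SE 0.29, adjusted p = 0.698), and the co-receptor Rgmb, at 13.1 per kb, exceeded each of the 10 members in mean level per length. Rgmb had a log2 fold change of −0.08 (SE 0.22), and Acvr2a shares 7.8% of its exon bases with Orc4 on the opposite strand. Of the other 4 Smads, all tested, Smad2, which Tgf-beta and activin receptors phosphorylate, was the most abundant per kb, at 2.18, with a log2 fold change of 0.42 (SE 0.28, adjusted p = 0.883).

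Most secreted antagonists were at or near 0 counts, and 3 of 17 were tested. Noggin (Nog) had 1 count in controls 1 and 3 and none elsewhere, and gremlin 1 (Grem1) had 7 and 2 counts in controls 2 and 4 and none elsewhere, where 3 counts, the limit a 0 allows, are 0.172 to 0.352 normalized CPM. Twsg1, which binds Bmps and chordin, was the most abundant at 3.65 normalized CPM per kb, with a log2 fold change of 0.15 (SE 0.24). Dand5, a secreted antagonist of the cerberus family, was at 1.1 to 1.62 normalized CPM in the controls and at 0.303 to 1.03 in the knockouts, every knockout below every control, as for 1.93% of all genes (log2 fold change −0.93, SE 0.49, adjusted p = 0.796).

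Markers of other cell types were read from the same libraries. Other epithelial cells can pass an EpCAM+ Cd24+ gate, whereas endothelial and most immune cells lack EpCAM and would be removed by it, and CD45 was stained as well. Over all genes tested, 4.35% were higher and 2.53% lower at an unadjusted p under 0.05. The summed level of 12 enteroendocrine markers was 432.3 to 1586.4 normalized CPM in controls and 46.6 to 1865.5 in knockouts. The highest sum, in knockout 3, came mostly from Gip, with 14315 counts there. Of the 12, 11 had a lower and 1 a higher estimate, with a median log2 fold change of −1.63. A negative estimate with an unadjusted p under 0.05 was found for 7 of 12, with 0 called. Summed tuft markers were 294.2 to 822.7 and 155.3 to 527.2 normalized CPM, with 2 of 9 tested lower at an unadjusted p under 0.05. Enterocyte markers summed to 247.5 to 435.4 and 164.6 to 335.6, and 4 of 9 tested were lower at that p. Goblet markers summed to 9472.2 to 18102.7 and 8048.9 to 19388.1, with 2 of 12 lower at that p. Stem cell markers summed to 762.7 to 1586.5 and 325.9 to 1050.1, with 3 of 10 higher and 3 lower at that p. Endothelial markers summed to 9.42 to 11.3 normalized CPM in controls and 6.81 to 9.15 in knockouts, and immune markers to 144.5 to 472.3 and 172 to 626.9. The immune sum came mostly from Lyz2, with 2063 to 5910 counts, while Ptprc, which encodes CD45, had 11 to 201 counts and the T-cell genes Cd3e and Cd8a had 1 or none in every library. The part of these cell types in the values of the pathway members was not tested.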

How the data were processed

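RNA of small pools of Paneth cells sorted by FACS was measured in 8 libraries, 4 control and 4 knockout mice. The method was Smart-seq2, in which cDNA of polyadenylated RNA is amplified by PCR. The authors aligned reads with GSNAP to mm10 and deposited raw counts of uniquely mapped reads per gene, made with featureCounts 1.6.3 on the Ensembl annotation, after demultiplexing with bcl2fastq 2.19.1, per the labels and methods. No strand setting is given in the sources used here. PCR copies were not removed by molecular identifiers, so counting intervals and floors cover the counting of reads only, not of molecules. The 92 spike-in rows, with at most 7 counts in a library, were left out.

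Symbols were matched for 53620 of 53801 genes, and 9 of 10 members had the same span as in GENCODE M21. Groups follow the genotype in the labels. Replicates were numbered in label order, which pairs nothing, and 1 animal number that occurs both for control 4 and for knockout 4 was left unused. Chi-square over degrees of freedom was 12.1 or more for every pair of libraries, so none repeated another within sampling noise.

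Counts were tested in R 4.3.3 with edgeR 4.0.16: TMM scaling, filterByExpr (10 counts minimum, 15 in total), a robust quasi-likelihood test over 13439 genes and Benjamini-Hochberg adjustment. Calls needed an adjusted p no higher than 0.05 together with a log2 fold change of 0.5 or more in either direction. The SE is the log2 fold change divided by the square root of F. Single genes were also tested by an exact two-sided permutation test over the 35 splits of 8 libraries on log2 CPM with a prior count of 2. DESeq2 1.42.0 and limma 3.58.1 (voom with quality weights) were alternatives, with other scalings, filters, covariates and each library left out. The fit was tested on simulated data of 13052 genes. The common biological coefficient of variation was 0.376.

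Named genes are the members, and of each pathway list those called, those with an unadjusted p under 0.05 and otherwise the most abundant per length. The other genes named were added after their values were seen. The members and lists were chosen with earlier results of these data known. Promoter windows on chromosome 18, where Smad4, Smad7 and Bambi lie, were left out of the search of members. Windows of 5 other members were read, of which the 2 without annotated exon bases are shown.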

Additional observations from a re-analysis of the deposited data

Results flagged for a closer look

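In 2 of 20 groups of 4 libraries, 1 library stood apart from the other 3 by more than Dixon's 95% limit for the gap as a share of the range, and chance alone gives about 1 in 20. For Smad4 knockout 3 was the lowest, at 4.7 normalized CPM against 19.3 to 21.1 in the other knockouts, a gap of 0.895 of the range. For Bmpr1a control 4 was the highest, at 18.6 normalized CPM against 16.9 to 17 in the other controls, a gap of 0.935 of a narrow range.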

How the results depend on the processing

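The number of members called was 0 under every alternative run. Of 95 other pathway genes, 3 (Id3, Msx2, Hes1) were called without a filter on low counts and 1 (Hes1) by limma-voom. With each library left out the number was 0, except without knockout 3, where it was 3 (Id3, Hes1 and Tgfbr2). The count over all genes, 25, became 290 without a filter, 13 with at least 10 counts in every library, 138 in DESeq2, 95 in limma-voom, 10 with a Y-linked covariate, 38 at an adjusted p of 0.1 and, with each library left out, 11, 12, 10 and 15 without controls 1 to 4 and 21, 11, 152 and 17 without knockouts 1 to 4. Of the 9 members Bmp7, Smad1, Smad4, Smad7 and Bambi kept their sign under all 17 settings. Bmp2 was negative in 5, −0.36 at the lowest, and 0 with upper-quartile scaling. The sign also turned for Smad6, to −0.25 in limma-voom and −0.37 without knockout 3, for Bmpr1a, to −0.05 without knockout 4, and for Bmpr2, to −0.04 without knockout 2. Smad6 could not be fitted with at least 10 counts in every library. The lowest adjusted p of a member was 0.0951, for Bmp4 without knockout 3, where it passed the filter through the knockouts alone. Among the 9 members tested with all libraries the lowest was 0.151, for Smad7 without knockout 3, followed by 0.298 for Smad1 without a filter and 0.433 for Bmp7 in limma-voom. The causes were not tested. No paired analysis was possible because the label numbers of the 2 groups share fewer than 2 animals. Depth limits Bmp4 and Smad6, at 33 or fewer counts in a library.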

Other observations

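Pla2g2a, an antimicrobial phospholipase of Paneth cells, split the libraries in a way that followed neither genotype nor run of label numbers. It received 165753 and 317744 counts in controls 1 and 4 and 386237 and 314099 in knockouts 3 and 4, but 7110 and 7442 in controls 2 and 3 and 9193 and 7978 in knockouts 1 and 2. The gene is 1 of the 16 Paneth markers summed above. Some laboratory mouse strains carry a disrupted copy of it, and the strain background of these mice was not tested. Bmp6, a ligand of the same family as Bmp7 that was too low to be tested, had 34 counts in knockout 3 and between 1 and 5 in the other libraries. It shares 5.7% of its exon bases with Txndc5 on the opposite strand. Bmp15, also too low to be tested, had 31 counts in knockout 3, 15 in control 1 and 0 elsewhere. Of the tested members, Smad6 and Bmp2 were also highest in knockout 3.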
